A study of Homo sapiens with 4 samples.

Results

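The genes of the extracellular matrix and its receptors were examined in HGC27 cells, a line established from an undifferentiated human gastric carcinoma, after a small interfering RNA (siRNA) against AARS1 (siAARS1). A gene was a member if its symbol was that of a collagen alpha chain, a laminin chain or an integrin subunit with a plain number or the letter V, E, L, M or X, or if it was THBS1, SPARC, TNC, NID1, NID2, HSPG2, LOX or LOXL2. The rule used names alone and no measured value, but it was set with earlier results of these data known. The members were 57 of the 14431 genes with a value, made up of 27 collagens, 7 laminins, 16 integrins and 7 of the 8 singly named genes. NID2 was not among the genes listed. RNA was sequenced from 2 control and 2 siAARS1 libraries. Every culture, controls included, was kept in glucose-free DMEM with 25 mM lactate. The labels give 24 h and the study's text another duration, so the time under lactate is uncertain. No library from cells without lactate was analysed here, and the labels do not say what the control cells received in place of the siRNA. The comparison asked which matrix and adhesion transcripts differ when AARS1, the cytosolic alanyl-tRNA synthetase that joins alanine to its tRNA, is knocked down under lactate.

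Collagens are trimers of alpha chains wound around one another, and each chain carries glycine at a fixed period along its helical part. Laminins are cross-shaped trimers of an alpha, a beta and a gamma chain that build basement membranes, and integrins are alpha-beta pairs that hold cells to collagen, laminin or RGD-containing proteins such as fibronectin. Integrin adhesions and matrix stiffness feed into YAP and TEAD, the transcription regulators of Hippo signalling that the study followed.

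Reads in listed genes numbered 30653210 to 33522573 a library, so that 1 read equalled 0.0293 to 0.0324 CPM, the read count scaled to library size, and the chi-square statistic per gene within groups was 3.61 to 3.63, above sampling noise. The targeted gene, listed as AARS (ENSG00000090861, chromosome 16, 70252295 to 70289543 on GRCh38, as for all genes below), had 428 and 417 CPM in control replicates 1 and 2 and 292 and 298 CPM in siAARS1 replicates 1 and 2. It was lower in both siAARS1 libraries, at 69.7% of the control mean (limma adjusted p = 2.52e-11). Of 5 epithelial markers, EPCAM, KRT18 and KRT19 were not listed. KRT8 had 24.8 and 25.2 CPM (control) against 6.61 and 5.08 CPM (siAARS1). CDH1 had 2.55 and 1.89 CPM (control) against 0.680 and 1.05 CPM (siAARS1). Of 4 mesenchymal markers 3 were listed, and they moved in different directions. VIM went from 5131 and 5068 CPM (control) to 4710 and 4600 CPM (siAARS1), and FN1 from 72.6 and 75.4 CPM to 54.2 and 51.7 CPM. ZEB1 went from 6.16 and 6.84 CPM to 50.03 and 52.3 CPM. All 7 fibroblast markers were listed, 3 of them collagens counted as members here. Their sum was 6503 and 6709 CPM (control) against 4844 and 4754 CPM (siAARS1). Of the 4 fibroblast markers that are no member, 3 were higher in both siAARS1 libraries and 1 was lower. LUM went from 118 and 125 CPM to 211 and 225 CPM, DCN from 239 and 250.3 CPM to 258 and 270.1 CPM, PDGFRA from 29.6 and 32.3 CPM to 35.2 and 37.6 CPM, and PDGFRB from 15.3 and 15.7 CPM to 7.51 and 7.61 CPM. None of 4 endothelial markers was listed, and of 4 leukocyte markers CD68 alone was, at 0.486 to 1.10 CPM. Of 2 platelet markers ITGA2B was listed, at 1.93 to 2.93 CPM, and the naming rule does not take it in. The part of a mixture of cell types in the results was not tested. In bulk RNA, fewer cells of a type and less RNA per cell cannot be told apart. Nothing states that the replicates came from separate cultures, so p-values measure the spread between these libraries, which may be technical.

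Promoters are shown for 3 members with large changes that hold the TEAD core motif, since YAP and TEAD act through it. RefSeq gave promoters for 42 of the 57 members, and none was matched for COL1A1, COL1A2, COL2A1, COL3A1, COL5A2, COL6A1, COL9A3, COL14A1, ITGA3, ITGA7, ITGA9, ITGB3, ITGB4, LAMA1 and LOXL2. Each run below is the 250 bases before the RefSeq start site on GRCh38.p14, read 5′ to 3′ on the gene's strand, with the TEAD motif in capitals. LAMA2 lies at chr6:128882888-128883137 (+), COL12A1 at chr6:75206054-75206303 (-) and THBS1 at chr15:39580829-39581078 (+).
LAMA2: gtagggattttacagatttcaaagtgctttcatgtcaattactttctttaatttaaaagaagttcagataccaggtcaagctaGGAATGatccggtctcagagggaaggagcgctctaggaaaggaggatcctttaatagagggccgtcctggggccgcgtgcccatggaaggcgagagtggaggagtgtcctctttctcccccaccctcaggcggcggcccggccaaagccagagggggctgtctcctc
COL12A1: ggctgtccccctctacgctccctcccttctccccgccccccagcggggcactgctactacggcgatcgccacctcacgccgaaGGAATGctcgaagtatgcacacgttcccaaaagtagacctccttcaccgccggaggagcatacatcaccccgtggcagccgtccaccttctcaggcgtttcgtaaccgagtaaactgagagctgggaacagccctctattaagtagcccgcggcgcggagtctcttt
THBS1: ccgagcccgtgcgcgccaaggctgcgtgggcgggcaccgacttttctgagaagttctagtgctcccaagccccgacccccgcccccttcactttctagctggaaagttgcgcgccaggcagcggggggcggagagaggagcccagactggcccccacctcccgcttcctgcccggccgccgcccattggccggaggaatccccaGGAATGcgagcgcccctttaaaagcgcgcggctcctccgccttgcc
LAMA2 and COL12A1 were higher in siAARS1 and THBS1 was lower, so these letters were found in genes that moved in opposite directions. On either strand, GGAATG was present in 7 of 57 promoters of members (12.3%) and in 9.87% of 15605 promoters of listed genes, some genes having more than 1 promoter. The 7 were those of COL11A2, COL12A1, ITGA5, ITGB1, LAMA2, SPARC and THBS1. The 3 shown are examples and not the 3 largest changes. ITGB1 (log2 fold change 0.976) and ITGA5 (-0.877) changed more than COL12A1 (0.975) and THBS1 (-0.816), respectively. The SP1 motif GGGCGG was present in 61.4% of promoters of members against 63.2%, the CCAAT letters in 14.0% against 33.1%, and the TATA box letters TATAAA in 10.53% against 5.77%. Overlaps between motifs were not removed, and a match is a description of letters, not of binding.

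Coding stretches are shown for 2 collagens that were higher and 2 that were lower in siAARS1, since fold changes followed base composition across the table. Each is the first unbroken run of 20 Gly-X-Y repeats in the coding sequence of the representative GENCODE v29 transcript, with glycine codons in capitals. They cover codons 529 to 588 of COL11A1, 559 to 618 of COL5A1, 2803 to 2862 of COL12A1 and 256 to 315 of COL6A2.
COL11A1: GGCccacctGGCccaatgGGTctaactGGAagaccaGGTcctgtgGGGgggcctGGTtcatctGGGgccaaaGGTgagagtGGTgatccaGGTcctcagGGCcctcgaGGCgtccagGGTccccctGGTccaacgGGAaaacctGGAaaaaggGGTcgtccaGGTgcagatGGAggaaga
COL5A1: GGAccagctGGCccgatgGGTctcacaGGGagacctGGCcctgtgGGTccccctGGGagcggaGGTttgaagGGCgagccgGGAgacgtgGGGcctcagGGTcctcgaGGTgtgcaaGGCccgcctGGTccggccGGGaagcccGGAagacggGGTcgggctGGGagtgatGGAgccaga
COL12A1: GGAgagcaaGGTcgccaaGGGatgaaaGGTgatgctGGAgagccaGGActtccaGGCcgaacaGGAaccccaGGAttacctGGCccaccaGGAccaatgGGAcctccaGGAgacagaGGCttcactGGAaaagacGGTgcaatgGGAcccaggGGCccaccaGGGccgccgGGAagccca
COL6A2: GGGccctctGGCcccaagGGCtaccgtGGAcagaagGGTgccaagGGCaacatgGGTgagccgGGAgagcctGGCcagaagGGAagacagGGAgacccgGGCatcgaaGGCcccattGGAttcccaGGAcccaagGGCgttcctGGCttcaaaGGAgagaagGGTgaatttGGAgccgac
The type XI and type V chains are close relatives, and in these stretches of COL11A1 and COL5A1 their GC content was 62.8% and 71.1%. Over the whole coding sequence, 27.3% of the glycine codons of COL11A1 ended in G or C, against 51.7% in COL5A1. The stretches of COL12A1 and COL6A2 hardly differed in GC content, at 62.8% and 63.3%. In COL12A1, which is mostly non-collagenous, the share was 36.3%, and in COL6A2 it was 60.6%. COL11A1 and COL12A1 were higher in siAARS1, and COL5A1 and COL6A2 were lower. COL3A1 and COL1A2 had the lowest shares of the 27 collagens, 22.3% and 27.0%, and both were lower in siAARS1.

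Matrix and adhesion genes moved mostly downward. Of the 57 members, 31 were called lower in siAARS1 (54.4%) at a limma adjusted p under 0.05, and 12 were called higher (21.1%). Among all 14199 genes tested, 38.0% were called lower and 32.6% higher, 70.7% in all. All 57 members passed the filter, a mean CPM of 1 or more in either group. Among called members, ITGA1 passed only through siAARS1 (mean 0.75 CPM in control) and ITGA9 only through control (mean 0.422 CPM in siAARS1). The median log2 fold change of the members was -0.27, against -0.05 for all genes, where fold changes are of log2(CPM + 1) and understate the change of genes with low CPM. The libraries of both groups did not overlap for 52 members (91.2%), against 85.1% of all genes. Calls of at least 2-fold on the log2(CPM + 1) scale numbered 4 in each direction among the members, or 7.02% each way. They were LAMA2, ITGAV, ITGA1 and ITGA4 (higher) and COL8A2, COL13A1, COL6A2 and COL1A2 (lower). COL15A1 and ITGA9 did not pass that limit, though lower by 2.04-fold and 2.79-fold in mean CPM. Of all genes, 10.6% passed that limit upward and 1.63% downward. Scaling each library to its median gene moved the all-gene median to -0.26. Of the called members, 27.9% were higher in the main scaling and 17.8% after median scaling, against 46.2% and 29.7% of the called genes overall. After median scaling 8 members were higher and 37 lower, where 23.8% of all genes were higher and 56.3% lower.

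By family, collagens had 4 chains higher (14.8%), 16 lower (59.3%) and 7 not called, with a median log2 fold change of -0.34. Of all genes, 32.6% were called higher and 38.0% lower. Laminins had 2 higher, 4 lower and 1 not called. Integrins had 6 higher, 6 lower (37.5% each) and 4 not called, near the shares of all genes. None of the 7 singly named matrix genes was higher and 5 were lower. By summed CPM, the collagens went from 8695 and 8902 in control to 6471 and 6299 in siAARS1, and the laminins from 1506 and 1554 to 1576 and 1558. The integrin sum went from 711 and 729 to 891 and 910. The higher integrin sum rested on ITGB1. Without ITGB1 it was 509 and 519 CPM (control) against 496 and 494 CPM (siAARS1), slightly lower. COL3A1 and COL1A1 made up most of the collagen sum, and without them it was 2722 and 2748 CPM (control) against 2201 and 2147 CPM (siAARS1), again lower in both siAARS1 libraries. The laminin groups lay closer together than the 2 control libraries, and none of these sums was tested.

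**Figure D1:**
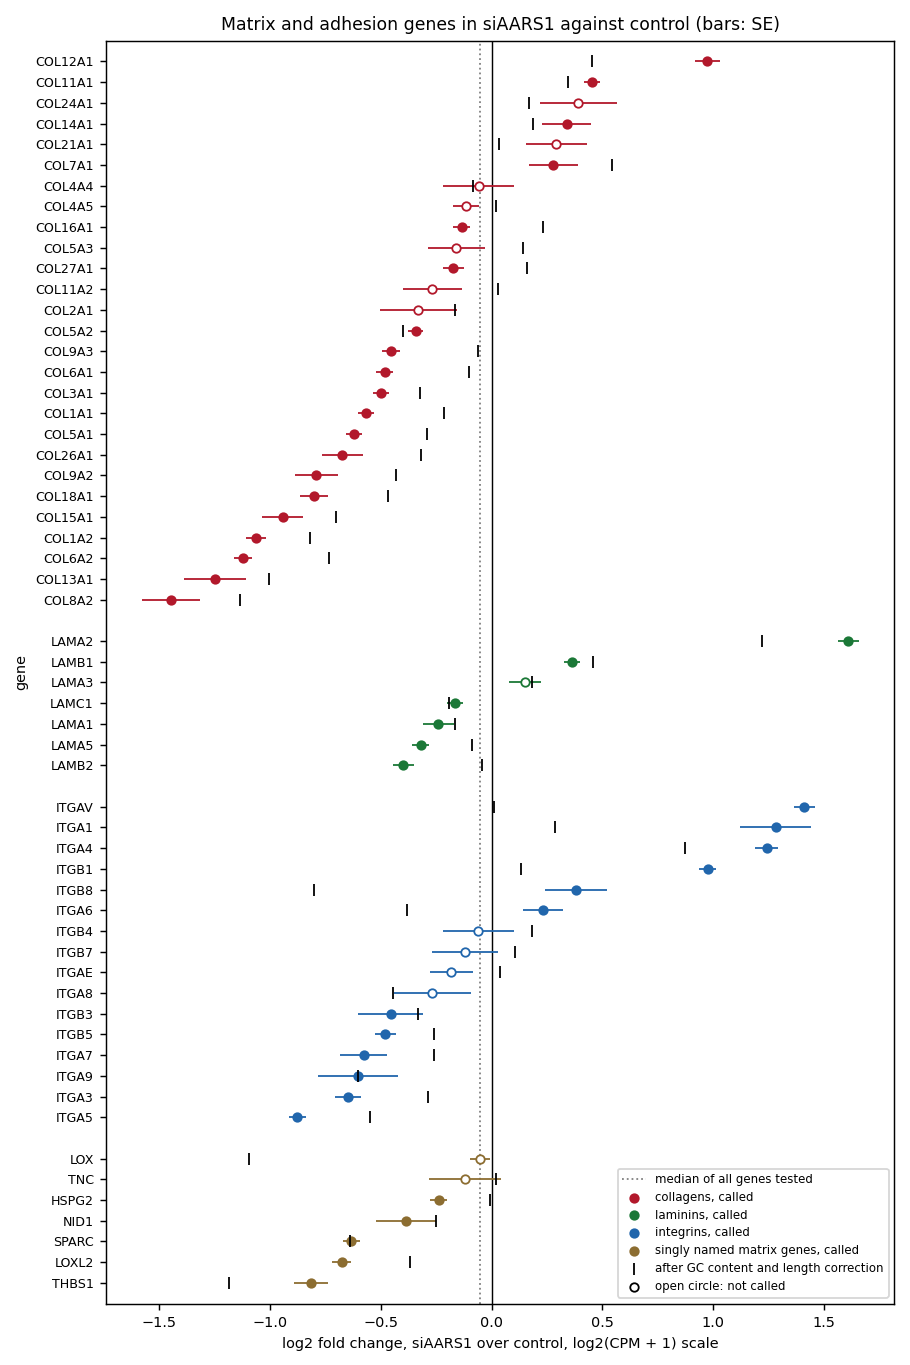
Log2 fold change of each of the 57 members, siAARS1 over control on the log2(CPM + 1) scale (horizontal axis), by gene family. Circles with bars are the estimate and its SE, filled where called, black ticks are the value after correction for GC content and length, and the dotted line is the all-gene median of -0.05. LAMA2 at 1.61 and COL8A2 at -1.45 mark the ends of the range.

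Fibrillar collagens make the banded fibers of connective tissue, and all 11 were listed. Of these, 1 was called higher (9.09%) and 6 lower (54.5%), beside 32.6% and 38.0% of all genes. COL3A1 (ENSG00000168542, chromosome 2, 188974320 to 189012746), the type III chain, was the most abundant member by CPM, with 3654 and 3755 CPM in control replicates 1 and 2 and 2627 and 2610.3 CPM in siAARS1 replicates 1 and 2. Both siAARS1 libraries lay below both controls, and the log2 fold change was -0.50 ± 0.0354 SE (adjusted p = 3.99e-11, limma). COL1A1 (ENSG00000108821, chromosome 17, 50183289 to 50201632), which supplies most chains of type I collagen, had 2319.8 and 2399 CPM in control replicates 1 and 2 and 1644 and 1541 CPM in siAARS1 replicates 1 and 2, again without overlap. Its log2 fold change was -0.57 ± 0.0376 SE (adjusted p = 1.32e-11, limma). COL1A2 (ENSG00000164692, chromosome 7, 94394561 to 94431232), its type I partner, had 128 and 131 CPM in control replicates 1 and 2 and 60.7 and 61.9 CPM in siAARS1 replicates 1 and 2. Both siAARS1 values were below both control values by a wide margin, 129 ± 2.27 CPM (SD, n = 2) against 61.3 ± 0.798 CPM, with a log2 fold change of -1.07 ± 0.0447 SE (adjusted p = 4.42e-15, limma). Both chains of type I collagen were thus lower, and whether their fold changes differ was not tested. Per kilobase of transcript, COL1A1 was at 351 CPM in control and COL1A2 at 23.9 CPM, so the partner chains were at unequal levels.

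The type V and XI chains, which nucleate fibrils, were split. COL5A1 (ENSG00000130635, chromosome 9, 134641774 to 134844843) had 506 and 518 CPM (control) against 340.3 and 325 CPM (siAARS1), with no overlap and a log2 fold change of -0.62 ± 0.0363 SE (adjusted p = 1.50e-12, limma). COL5A2 (ENSG00000204262, chromosome 2, 189031896 to 189225312) had 499 and 499 CPM (control) against 394 and 392 CPM (siAARS1), also without overlap, and a log2 fold change of -0.34 ± 0.0343 SE (adjusted p = 1.28e-08, limma). COL11A1 (ENSG00000060718, chromosome 1, 102876467 to 103108872) went the other way with 292 and 297 CPM in control replicates 1 and 2 and 406 and 401 CPM in siAARS1 replicates 1 and 2. It was the fibrillar collagen called higher, with a log2 fold change of 0.45 ± 0.0353 SE (adjusted p = 2.09e-10, limma). COL27A1, a fibrillar chain of cartilage, had 78.0 and 76.8 CPM (control) against 69.7 and 67.3 CPM (siAARS1) and a log2 fold change of -0.17 ± 0.0474 SE (adjusted p = 0.00272, limma), but after correction for GC content and length it was 0.16 (limma adjusted p = 0.00146). COL2A1, COL5A3, COL11A2 and COL24A1 were not called and stayed between 0.541 and 5.77 CPM. After median scaling, where the all-gene median was -0.26, COL2A1 (-0.43), COL5A3 (-0.35) and COL11A2 (-0.46) were called lower. Under quantile normalization COL11A2 was called lower (-0.38) and COL24A1 higher (0.43). COL24A1 was also called higher by edgeR on recovered reads with TMM (0.81) and RLE (0.83).

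Type VI collagen forms beaded filaments around cells. COL6A2 (ENSG00000142173, chromosome 21, 46098097 to 46132849) had 227 and 224 CPM in control replicates 1 and 2 and 105 and 101 CPM in siAARS1 replicates 1 and 2. Both siAARS1 libraries held less than 0.5 of either control, and the log2 fold change was -1.12 ± 0.0404 SE (adjusted p = 2.92e-16, limma). COL6A1 (ENSG00000142156, chromosome 21, 45981737 to 46005050), which lies on the same chromosome, had 351 and 340.1 CPM (control) against 253 and 241 CPM (siAARS1) and fell by 0.48 on the log2 scale (limma adjusted p = 2.60e-10). COL6A3, the remaining chain of the common trimer, was not listed.

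Chains of other types gave the deepest falls and also the largest collagen rise. COL8A2 (ENSG00000171812, chromosome 1, 36095236 to 36125220), a short-chain collagen of the corneal Descemet membrane, had 7.80 and 6.997 CPM in control replicates 1 and 2 and 2.20 and 1.96 CPM in siAARS1 replicates 1 and 2. Both siAARS1 values were far below control, 3.56-fold lower in mean CPM, with a log2 fold change of -1.45 ± 0.13 SE (adjusted p = 2.20e-09, limma). COL15A1 (ENSG00000204291, chromosome 9, 98943179 to 99070792) and COL18A1 (ENSG00000182871, chromosome 21, 45405137 to 45513720) are multiplexins, and the end of the type XVIII chain yields endostatin. COL15A1 had 16.3 and 15.9 CPM (control) against 7.80 and 8.001 CPM (siAARS1), without overlap and with a log2 fold change of -0.94 ± 0.0935 SE (adjusted p = 1.05e-08, limma). COL18A1 had 41.6 and 43.7 CPM (control) against 24.7 and 23.5 CPM (siAARS1) and a log2 fold change of -0.80 ± 0.0637 SE (adjusted p = 2.91e-10, limma), its exons overlapping those of SLC19A1 on the other strand. COL13A1, a transmembrane collagen, had 5.16 and 4.73 CPM (control) against 1.55 and 1.44 CPM (siAARS1) and a log2 fold change of -1.25 ± 0.139 SE (adjusted p = 6.62e-08, limma) at levels near 5 CPM or below. COL26A1 (ENSG00000160963, chromosome 7, 101362820 to 101559024) had 16.6 and 19.8 CPM (control) against 10.9 and 11.1 CPM (siAARS1), again without overlap, with a log2 fold change of -0.67 ± 0.0939 SE (adjusted p = 1.71e-06, limma).

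COL12A1 (ENSG00000111799, chromosome 6, 75084326 to 75206051), a chain that sits on the surface of fibrils (a FACIT collagen), had 31.2 and 31.9 CPM in control replicates 1 and 2 and 63.4 and 62.5 CPM in siAARS1 replicates 1 and 2. The siAARS1 libraries were 1.996-fold higher in mean CPM and did not overlap the controls, with a log2 fold change of 0.97 ± 0.0548 SE (adjusted p = 7.60e-13, limma). COL14A1 (ENSG00000187955), another FACIT, had 9.36 and 10.1 CPM (control) against 14.3 and 11.01 CPM (siAARS1) and a log2 fold change of 0.34 ± 0.11 SE (adjusted p = 0.00941, limma). Its call was lost without siAARS1 replicate 1, at 0.16 (limma adjusted p = 0.25), and after median scaling at 0.13. COL7A1 (ENSG00000114270, chromosome 3, 48564073 to 48595267), the anchoring fibril collagen of skin, had 8.56 and 10.6 CPM (control) against 12.9 and 10.8 CPM (siAARS1), a narrow gap, and a log2 fold change of 0.28 ± 0.111 SE (adjusted p = 0.0305, limma). Its call was lost without control replicate 1 (0.14), without siAARS1 replicate 1 (0.16) and after median scaling (0.07), while the GC-corrected value was 0.55. Falls among the FACITs were those of COL9A2 (ENSG00000049089, chromosome 1, 40300487 to 40317813), with 16.6 and 19.9 CPM (control) against 9.65 and 10.53 CPM (siAARS1) and a log2 fold change of -0.79 ± 0.0968 SE (adjusted p = 2.63e-07, limma), and of COL9A3, with 164 and 169.6 CPM (control) against 122 and 121 CPM (siAARS1) and -0.46 ± 0.0405 SE (adjusted p = 1.88e-09, limma). COL16A1 had 249.7 and 251 CPM (control) against 234 and 222 CPM (siAARS1) and a log2 fold change of -0.13 ± 0.0386 SE (adjusted p = 0.00399, limma), a call that was lost without siAARS1 replicate 2 (-0.09) and that turned to 0.23 after the correction for GC content and length. Basement membrane collagens were represented by COL4A5, at 50.4 to 59.2 CPM, and COL4A4, at 1.44 to 1.99 CPM, and neither was called. After median scaling COL4A5 was called lower at -0.34, where the all-gene median was -0.26. The FACIT chain COL21A1, at 2.93 to 4.57 CPM, was not called, but edgeR on recovered reads called it higher with TMM (0.40) and RLE (0.41).

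**Figure D2:**
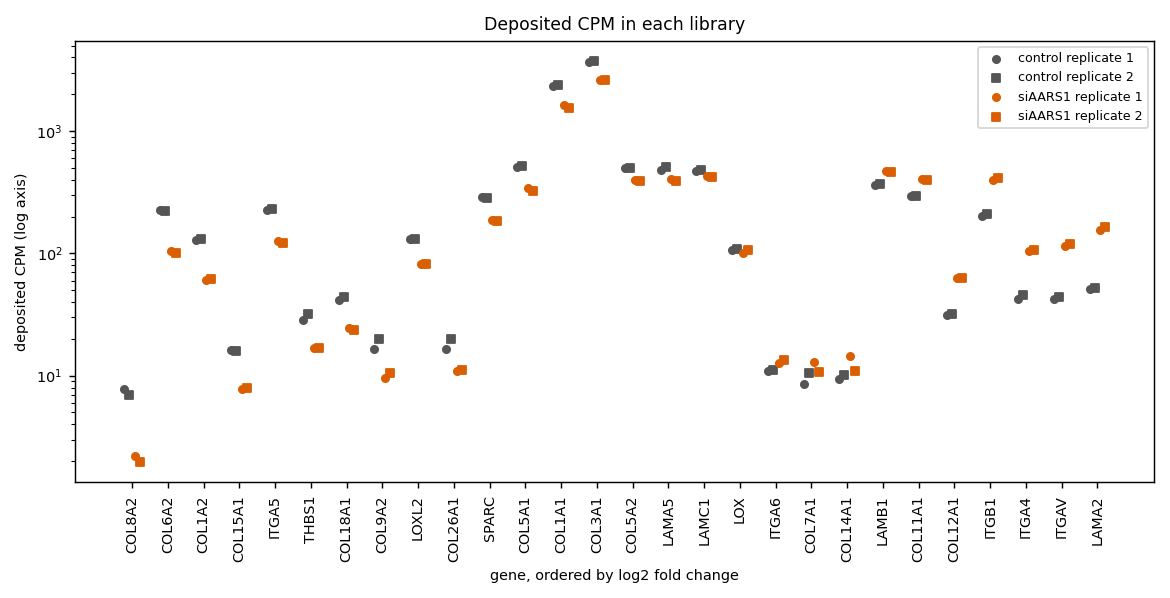
Deposited CPM (vertical log axis) of 28 members in each of the 4 libraries, ordered by log2 fold change. Grey points are control and orange points siAARS1, circles replicate 1 and squares replicate 2. From COL8A2 to COL1A2 the orange points lie below the grey ones, and for ITGB1, ITGA4, ITGAV and LAMA2 above them.

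Laminin chains moved in both directions. LAMA2 (ENSG00000196569, chromosome 6, 128883141 to 129516569), the alpha chain of the laminin of muscle and nerve basement membranes, had 50.97 and 51.8 CPM in control replicates 1 and 2 and 155 and 164 CPM in siAARS1 replicates 1 and 2. Both siAARS1 libraries lay above both controls, 3.10-fold higher in mean CPM, with a log2 fold change of 1.61 ± 0.0459 SE (adjusted p = 6.33e-18, limma), the largest of the members on this scale. LAMA5 (ENSG00000130702, chromosome 20, 62307955 to 62367312), the alpha chain widespread in epithelia and vessels and the most abundant laminin by CPM in control, had 483 and 510.2 CPM in control replicates 1 and 2 and 403 and 392 CPM in siAARS1 replicates 1 and 2. It was lower without overlap, with a log2 fold change of -0.32 ± 0.037 SE (adjusted p = 1.13e-07, limma) and -0.09 after the GC and length correction. Per kilobase of transcript, LAMA2 went from 5.33 to 16.5 CPM and LAMA5 from 43.4 to 34.8 CPM, so LAMA5 was the higher of the pair in both groups.

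LAMB1 (ENSG00000091136, chromosome 7, 107923799 to 108003255), the beta chain that joins LAMA2 and LAMC1 in laminin-211, had 359.8 and 369 CPM in control replicates 1 and 2 and 473 and 464 CPM in siAARS1 replicates 1 and 2. It was higher in both siAARS1 libraries, with a log2 fold change of 0.36 ± 0.0352 SE (adjusted p = 7.32e-09, limma). LAMB2 (ENSG00000172037, chromosome 3, 49121114 to 49133118), the alternative beta chain, had 90.6 and 93.6 CPM (control) against 68.8 and 70.5 CPM (siAARS1). It was lower in both, with a log2 fold change of -0.40 ± 0.0463 SE (adjusted p = 1.29e-07, limma), a call that ended once GC content and length were corrected for (-0.04, limma adjusted p = 0.354). LAMC1 (ENSG00000135862, chromosome 1, 183023460 to 183145592), the shared gamma chain, had 473 and 481 CPM (control) against 430.0 and 420.2 CPM (siAARS1) and a log2 fold change of -0.17 ± 0.0349 SE (adjusted p = 2.50e-04, limma). LAMA1, the alpha chain of the early embryo, fell by 0.24 on the log2 scale (limma adjusted p = 0.00417). LAMA3, the alpha chain of skin-type laminin, had 21.3 to 25.0 CPM and was not called (limma adjusted p = 0.0703). LAMB1 overlaps exons of DLD and LAMA5 those of ADRM1 on the opposite strand. Exons of COL9A3, HSPG2, ITGA7, ITGA9, ITGAE, ITGB7 and LOX likewise overlap a listed gene on the other strand, and whether the counting used strand is not given in the sources used here.

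Of 10 integrin alpha subunits, 4 were called higher and 4 lower (40% each), near the 32.6% and 38.0% of all genes. ITGAV (ENSG00000138448, chromosome 2, 186590065 to 186680901), an RGD-binding subunit that pairs with several beta chains, had 42.4 and 43.6 CPM in control replicates 1 and 2 and 114 and 118 CPM in siAARS1 replicates 1 and 2. It was 2.70-fold higher in mean CPM with no overlap, and its log2 fold change was 1.41 ± 0.0481 SE (adjusted p = 1.12e-16, limma). After the correction for GC content and length this value was 0.01 (limma adjusted p = 0.835). ITGA4 (ENSG00000115232, chromosome 2, 181457202 to 181536187), which binds VCAM1 and fibronectin, had 42.6 and 46.0 CPM in control replicates 1 and 2 and 105 and 108 CPM in siAARS1 replicates 1 and 2. Its siAARS1 values were all above control, with a log2 fold change of 1.24 ± 0.0508 SE (adjusted p = 2.80e-15, limma) and 0.87 after the correction. ITGA5 (ENSG00000161638, chromosome 12, 54395261 to 54419460), the fibronectin receptor subunit and the most abundant alpha by CPM in control, had 226 and 231 CPM in control replicates 1 and 2 and 126 and 122 CPM in siAARS1 replicates 1 and 2. It was lower in both siAARS1 libraries, 1.84-fold in mean CPM, with a log2 fold change of -0.88 ± 0.0392 SE (adjusted p = 1.34e-14, limma). Among the laminin-binding subunits, ITGA3 (ENSG00000005884, chromosome 17, 50055968 to 50090481) had 55.1 and 55.3 CPM (control) against 36.6 and 33.3 CPM (siAARS1) and a log2 fold change of -0.65 ± 0.0588 SE (adjusted p = 2.61e-09, limma), without overlap.

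ITGA7, the laminin receptor of muscle, had 10.53 and 10.4 CPM (control) against 7.09 and 6.29 CPM (siAARS1) and a log2 fold change of -0.58 ± 0.106 SE (adjusted p = 5.58e-05, limma). ITGA6 (ENSG00000091409, chromosome 2, 172427354 to 172506282) had 10.9 and 11.1 CPM (control) against 12.8 and 13.4 CPM (siAARS1) and a log2 fold change of 0.23 ± 0.092 SE (adjusted p = 0.0292, limma). The ITGA6 call was lost on leaving out any 1 of the 4 libraries (0.20 to 0.27), and its value turned to -0.016 under quantile normalization and to -0.38 after the correction. ITGA1, a collagen-binding subunit, had 0.938 and 0.567 CPM (control) against 3.17 and 3.31 CPM (siAARS1), with a log2 fold change of 1.28 ± 0.16 SE (adjusted p = 3.41e-07, limma) and 0.29 after correction (limma adjusted p = 0.115), and shares exons with PELO on the same strand. ITGA9 had 1.44 and 0.914 CPM (control) against 0.453 and 0.391 CPM (siAARS1) and a log2 fold change of -0.60 ± 0.18 SE (adjusted p = 0.00518, limma), lost without control replicate 1 (-0.43). ITGA8, at 0.550 to 1.04 CPM, and ITGAE, an intraepithelial lymphocyte subunit at 10.7 to 13.9 CPM, were not called. ITGA8 was called lower after the correction (-0.45), and ITGAE after median scaling (-0.39), where the all-gene median was -0.26. ITGA2, ITGA10 and ITGA11, the other collagen-binding subunits, were not listed, nor were ITGAL, ITGAM and ITGAX.

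The beta subunits were led by ITGB1 (ENSG00000150093, chromosome 10, 32900319 to 33005792), the common partner of ITGA1, ITGA3 to ITGA9 and ITGAV, which had 202 and 209 CPM in control replicates 1 and 2 and 395 and 416 CPM in siAARS1 replicates 1 and 2. It was 1.97-fold higher in mean CPM without overlap, with a log2 fold change of 0.98 ± 0.0382 SE (adjusted p = 1.34e-15, limma) and 0.13 (limma adjusted p = 3.53e-04) after the correction for GC content and length. ITGB5 (ENSG00000082781, chromosome 3, 124761948 to 124901418), a partner of ITGAV, had 94.8 and 96.2 CPM (control) against 70.0 and 66.3 CPM (siAARS1) and fell by 0.48 on the log2 scale (limma adjusted p = 8.91e-09). The gap between the groups was wider than that between replicates. ITGB3, the platelet and vessel subunit, had 2.58 and 2.96 CPM (control) against 1.81 and 1.68 CPM (siAARS1) and a log2 fold change of -0.46 ± 0.147 SE (adjusted p = 0.00922, limma), lost without control replicate 2 (-0.38) or siAARS1 replicate 2 (-0.42). ITGB8 had 2.38 and 3.09 CPM (control) against 3.85 and 3.82 CPM (siAARS1) and a log2 fold change of 0.38 ± 0.141 SE (adjusted p = 0.0206, limma). It lost its call without control replicate 1 (0.24), siAARS1 replicate 1 (0.38) or siAARS1 replicate 2 (0.39), and was -0.80 once corrected for GC content and length. ITGB4 and ITGB7 stayed between 1.62 and 2.55 CPM and were not called.

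Per kilobase of transcript, ITGB1 was the highest integrin in both groups, at 54.4 and 107 CPM in control and siAARS1. ITGA5 was at 51.4 and 27.9 CPM and ITGA4 at 10.6 and 25.3 CPM, so that these alpha subunits were far apart in control and close together in siAARS1. ITGAV was at 6.12 and 16.5 CPM per kilobase and ITGA3 at 11.3 and 7.15 CPM per kilobase.

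**Figure D3:**
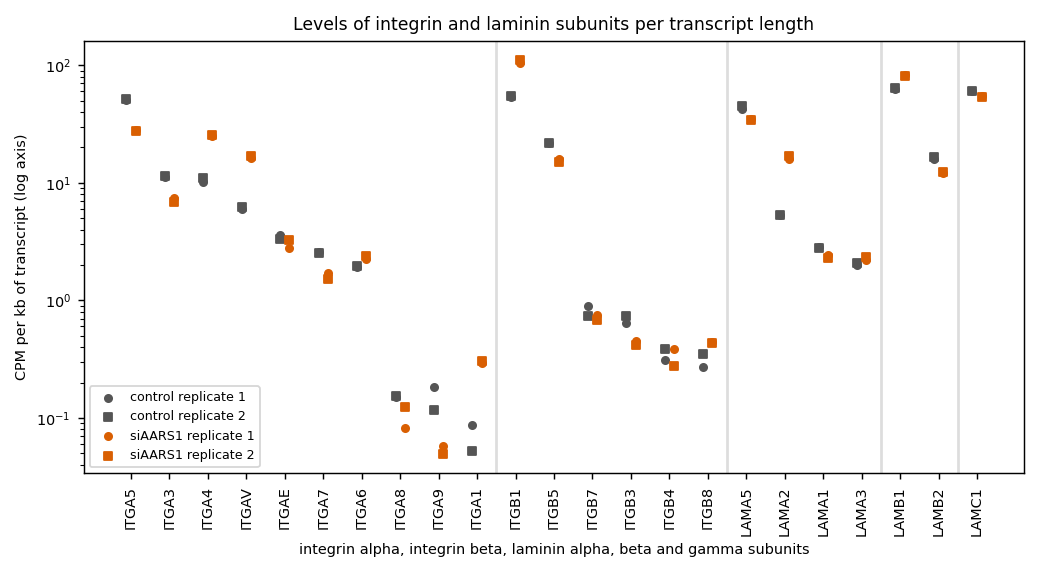
CPM per kilobase of transcript (vertical log axis) for the listed integrin alpha and beta and laminin alpha, beta and gamma chains. Grey points are control and orange points siAARS1 libraries, and vertical lines part the 5 groups. ITGB1 is close to ITGA5 in control and well above it in siAARS1, and ITGA4 and ITGAV approach ITGA5. Levels are not corrected for GC content.

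The singly named genes include regulators and cross-linkers of the matrix. THBS1 (ENSG00000137801, chromosome 15, 39581079 to 39599466), thrombospondin-1 and a known YAP target, had 28.5 and 32.1 CPM in control replicates 1 and 2 and 16.7 and 16.7 CPM in siAARS1 replicates 1 and 2. It was lower without overlap, with a log2 fold change of -0.82 ± 0.0757 SE (adjusted p = 3.74e-09, limma) and -1.19 with GC content and length corrected for. SPARC (ENSG00000113140, chromosome 5, 151661096 to 151687165), a collagen-binding matricellular protein, had 289 and 286 CPM in control replicates 1 and 2 and 186 and 184 CPM in siAARS1 replicates 1 and 2. It was lower in both siAARS1 libraries, with a log2 fold change of -0.63 ± 0.0369 SE (adjusted p = 1.41e-12, limma) and -0.64 after correction. TNC, tenascin-C, had 1.44 and 1.48 CPM (control) against 1.07 and 1.47 CPM (siAARS1) and was not called.

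LOXL2 (ENSG00000134013), a lysyl oxidase that cross-links collagen, had 130.1 and 131 CPM in control replicates 1 and 2 and 81.3 and 81.2 CPM in siAARS1 replicates 1 and 2. Its groups did not overlap and the log2 fold change was -0.68 ± 0.0427 SE (adjusted p = 5.50e-12, limma), with exons shared with ENTPD4 on the same strand. LOX (ENSG00000113083, chromosome 5, 122063195 to 122078360), the founding lysyl oxidase, had 107 and 108 CPM in control replicates 1 and 2 and 100.5 and 107 CPM in siAARS1 replicates 1 and 2. Its siAARS1 values were slightly below control and it was not called (limma adjusted p = 0.301), but its transcript is GC-poor (39.6%) and its value after correction was -1.10 (limma adjusted p = 7.81e-15). After median scaling LOX was called lower at -0.28, close to the all-gene median of -0.26 in that scaling. HSPG2 (ENSG00000142798, chromosome 1, 21822245 to 21937297), perlecan of basement membranes, had 220.0 and 232 CPM (control) against 192 and 191 CPM (siAARS1) and a log2 fold change of -0.24 ± 0.0392 SE (adjusted p = 1.42e-05, limma), which was -0.01 after the correction. NID1, which links laminin to type IV collagen, had 4.75 and 4.98 CPM (control) against 3.98 and 3.04 CPM (siAARS1) and a log2 fold change of -0.39 ± 0.135 SE (adjusted p = 0.015, limma), lost without control replicate 2 (-0.36) or siAARS1 replicate 2 (-0.23).

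Fold changes followed the GC content of the transcript across the whole table. The rank correlation of log2 fold change with GC content was -0.65 over 13819 genes, -0.56 over the 57 members, -0.50 over the 27 collagens and -0.69 over the 16 integrins. These describe genes that share the same 4 libraries. Of the 22 members in the GC-richest quintile of genes, 16 were called lower and 1, COL7A1, higher, where 67.3% of all genes in that quintile were called lower. Of the 5 in the GC-poorest quintile (ITGA1, ITGAV, ITGB1, ITGB8 and LOX), 4 were called higher and none lower. Rises were usual there, since all genes of that quintile had a median log2 fold change of 0.77 and 3.91% were called lower. The share of them called higher was not computed. The share of alanine codons, of interest because AARS1 charges the alanine tRNA, had a rank correlation of -0.34 with log2 fold change over 12312 genes. It was -0.34 over the members, -0.62 over the collagens and -0.40 over the integrins. Alanine codons all begin with GC, so their share is tied to GC content. An effect of the codons was not tested and cannot be told apart from one of GC content here. Transcript length had a rank correlation of 0.30 over all genes, 0.44 over the members, 0.61 over the collagens and 0.19 over the integrins.

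Taking out the smooth trend with GC content and length left 10 members higher and 29 lower, where 32.9% of all genes were higher and 33.3% lower. Real differences tied to base composition or length are removed with it. The median log2 fold change of the members became -0.16 against -0.01 for all genes. Among collagens 5 were then higher and 13 lower, among laminins 3 and 3, and among integrins 2 (ITGA4 and ITGB1) and 9. LAMA2 at 1.22, COL12A1 at 0.46, LAMB1 at 0.46 and COL11A1 at 0.34 were still higher, and COL8A2 at -1.14, COL1A2 at -0.82, COL6A2 at -0.74 and COL15A1 at -0.70 were still lower. COL18A1 (-0.47), COL9A2 (-0.43), LOXL2 (-0.37), COL26A1 (-0.32), COL3A1 (-0.32), COL5A1 (-0.29), COL1A1 (-0.21) and COL6A1 (-0.10) kept their call with a smaller value. So did ITGA5 (-0.55), ITGA3 (-0.29), ITGA7 (-0.26), ITGB5 (-0.26) and LAMA5 (-0.09). COL9A3 (-0.06), COL14A1 (0.19) and NID1 (-0.25) did not keep theirs, and LAMA3 was then called higher (0.18).

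**Figure D4:**
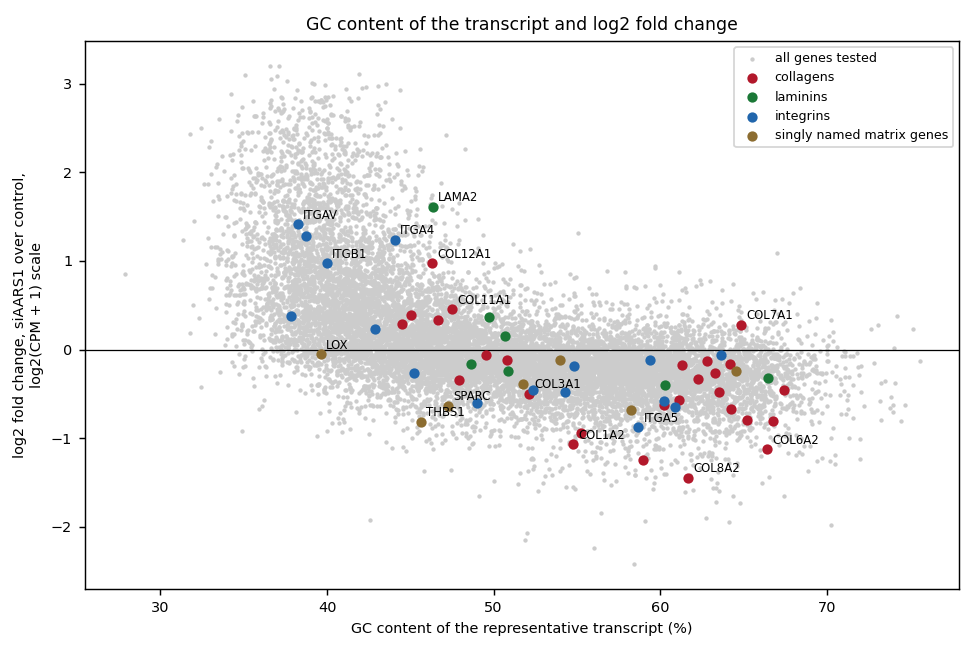
Log2 fold change on the log2(CPM + 1) scale (vertical axis) against GC content of the representative transcript in percent (horizontal axis). Grey dots are all genes tested with a transcript and colored points the 57 members by family. GC-poor members such as ITGAV and ITGB1 lie high with the grey cloud, LAMA2 lies toward its upper edge, and THBS1 and SPARC lie toward its lower edge.

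Genes that make, cut or read the matrix were described from 5 further lists, in which 29 of 131 genes tested were called higher (22.1%) and 88 lower (67.2%), beside 32.6% and 38.0% of all genes. After the correction for GC content and length 21 were higher and 76 lower, and the median log2 fold change went from -0.33 to -0.14. Collagen processing enzymes had 8 higher and 20 lower of 32, with a median log2 fold change of -0.22. MIA3, which helps load procollagen into transport carriers, had 19.97 and 20.7 CPM (control) against 80.1 and 85.8 CPM (siAARS1) and a log2 fold change of 1.98 ± 0.0587 SE (adjusted p = 1.17e-17, limma). PLOD2, a lysyl hydroxylase of collagen, had 18.4 and 19.4 CPM (control) against 63.4 and 67.4 CPM (siAARS1) and a log2 fold change of 1.74 ± 0.062 SE (adjusted p = 2.47e-16, limma). ADAMTS3, a procollagen N-proteinase, had a log2 fold change of 1.60 ± 0.0814 SE (adjusted p = 1.26e-13, limma). These 3 rose while 20 of their list were lower. After the correction for GC content and length MIA3 was at 0.84, PLOD2 at 0.71 and ADAMTS3 at 0.90, and of the list 8 were then higher and 12 lower, with a median of -0.03. Other matrix glycoproteins and proteoglycans had 8 higher and 16 lower of 29, and POSTN, periostin, had 34.7 and 35.05 CPM (control) against 224 and 236 CPM (siAARS1), a log2 fold change of 2.69 ± 0.0457 SE (adjusted p = 4.22e-21, limma). FREM2 rose by 1.80 and LTBP2 fell by 1.03 on the log2 scale. The corrected values were 1.81 for POSTN, 0.81 for FREM2 and -0.74 for LTBP2, and 3 of this list were then higher and 16 lower.

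For the lists that follow, the shares of all genes were again 32.6% higher and 38.0% lower, and 32.9% and 33.3% after the correction. Matrix proteases and their inhibitors had 4 higher and 16 lower of 23, with a median of -0.52. MMP2, a gelatinase, had 116 and 118 CPM (control) against 45.7 and 42.1 CPM (siAARS1) and a log2 fold change of -1.40 ± 0.0503 SE (adjusted p = 2.99e-16, limma). MMP16, a membrane-bound protease that can activate pro-MMP2, had 13.5 and 14.1 CPM (control) against 65.9 and 71.1 CPM (siAARS1) and a log2 fold change of 2.23 ± 0.0655 SE (adjusted p = 9.85e-18, limma). ADAM10 rose by 1.39. Once GC content and length were corrected for, MMP16 was at 0.66, MMP2 at -1.12 and ADAM10 at -0.11, with 2 of the list higher and 17 lower. Integrin adaptors had 6 higher and 23 lower of 31, with a median of -0.33. FLNC, a filamin, fell from 132 and 133 CPM to 70.2 and 68.9 CPM, LIMS2 had a log2 fold change of -1.72 at 0.782 to 6.16 CPM, and KRIT1 one of 1.65. Their corrected values were -0.60, -1.44 and 0.58, and 6 adaptors were then higher and 18 lower. Other matrix receptors had 3 higher and 13 lower of 16. DDR2 and DDR1 are both collagen-binding receptor kinases, and DDR2 had 91.8 and 93.6 CPM (control) against 260.3 and 268 CPM (siAARS1) while DDR1 had 96.1 and 96.3 CPM (control) against 56.5 and 54.6 CPM (siAARS1). Their log2 fold changes were 1.499 ± 0.0398 SE (adjusted p = 2.02e-18, limma) and -0.78 ± 0.0472 SE (adjusted p = 2.71e-12, limma). After the correction DDR2 was at 0.32 and DDR1 at -0.42. GPC6, a glypican, rose by 0.76 and was -0.16 after the correction, when 2 receptors were higher and 13 lower.

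**Figure D5:**
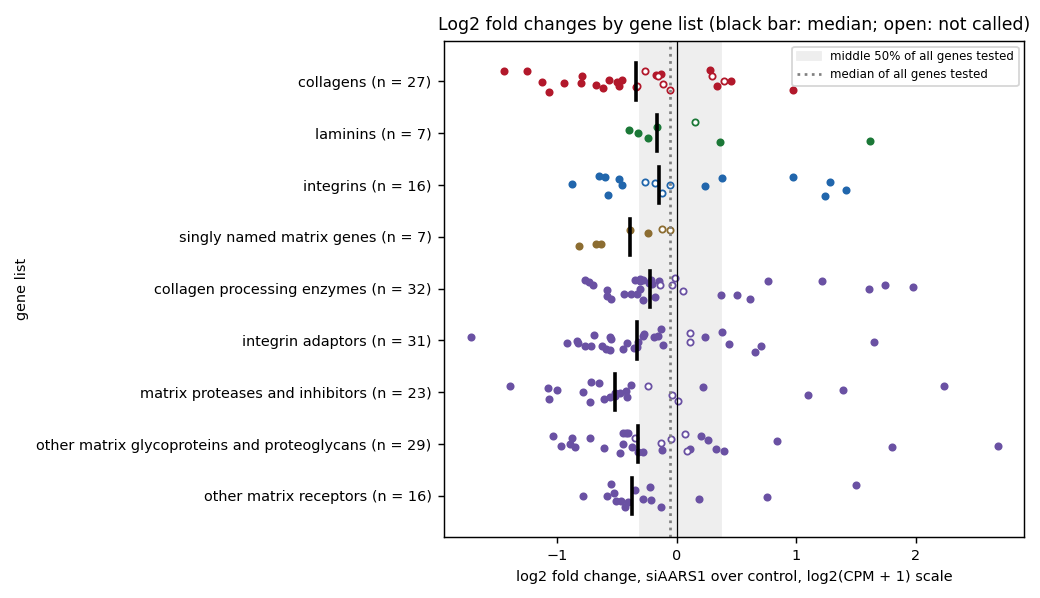
Log2 fold change (horizontal axis, log2(CPM + 1) scale) of each gene in the 4 member groups and 5 further lists. Filled points are called and open points not, black bars are medians, the dotted line is the all-gene median and the grey band the middle 50% of all genes. Medians lie left of the all-gene median in all 9 lists, at -0.34 for collagens and -0.52 for proteases and inhibitors.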

How the data were processed

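RNA-seq of 4 HGC27 libraries was read from 1 table that the authors deposited, which holds CPM values for 14431 genes at 3 decimals. No listed gene was at or under 1 CPM in all 4 libraries, so passing the filter below says little. A gene that is not listed has no value here and cannot be called absent. The submitters' processing notes name RSEM 1.3.3 and the genome build hg38, with no role given. The aligner, the annotation and the use of strand are not given in the sources used here. CPM corrects for library size and not for length or GC content, and it is relative, so a change in a few abundant genes shifts all others. In each library 100% of values were whole multiples of 1 read within 0.05 reads. A count of 3 reads, the limit that 0 reads allow, equalled 0.0880 to 0.0971 CPM, which covers counting error only.

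Groups were taken from the sample titles. siAARS1 was compared with control by limma 3.58.1 (R 4.3.3, eBayes with trend, two-sided) on log2(CPM + 1) for 14199 genes whose mean reached 1 CPM in either group, with Benjamini-Hochberg adjustment over all of them and a threshold of 0.05. SD is over n = 2. On the recovered reads, edgeR 4.0.16 (TMM, quasi-likelihood) called 9806 genes and DESeq2 1.42.0 was also run. No test of single genes is given in the sources used here. Members and lists were chosen with earlier results of these data known. Values in all libraries were given for the 10 largest called rises and 10 largest falls without overlap and with at least 5 CPM in the higher group, the most abundant member of each family, the singly named genes, and partners of a named chain. Up to 3 genes with the largest called change were named from each further list. Other members were named under their role. Gene coordinates, transcripts, lengths and GC content are those of GENCODE v29 (GRCh38), for 97.2% of listed genes, and may differ from the authors' annotation. The GC content and length correction took the smooth trend of each library's deviation from the gene mean out with mgcv 1.9.3. Of the members, 28 overlap exons of another gene, 12 of them a listed gene. Promoters are from RefSeq. Other settings tried were a pseudocount of 0.1, no filter, median scaling, quantile normalization, a replicate block, a threshold of 0.01, edgeR with RLE and each library left out. The fits were tested on simulated data.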

Additional observations from a re-analysis of the deposited data

How the results depend on the processing

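With 2 libraries a group, the spread rests on few samples. Of 43 called members, 33 kept direction and call in all 13 alternatives without a GC correction, 28 in all 15, and 35 in the 4 fits without a library. Leaving out a library gave 9 to 12 members higher and 29 to 32 lower, and 25 to 29 further genes of the pathway higher and 84 to 86 lower. DESeq2 gave 9 members higher and 26 lower, edgeR with TMM 15 and 31, and a threshold of 0.01 gave 9 and 30. Of all 14199 genes, DESeq2 called 4499 higher and 3856 lower, edgeR with TMM 4932 and 4874, and the threshold of 0.01 4178 and 4536. AARS1 was lower in every setting run. With the replicate number as a block, 4770 of all genes were higher and 5619 lower. Of the members, 15 were then higher and 33 lower, and no member call was lost. Those added were COL21A1 (0.29), COL24A1 (0.39) and LAMA3 (0.15) as higher, and COL11A2 (-0.27) and COL4A5 (-0.12) as lower. Samples of the same number deviated from their group means with a correlation of 0.118 across genes, and no label says that a number marks a shared culture, so the pairing is of numbers only.

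Values that changed direction were COL16A1 at 0.23, COL27A1 at 0.16, ITGA6 at -0.38 and ITGB8 at -0.80 after the GC content and length correction, each the same with the replicate block, and ITGA6 at -0.016 under quantile normalization. The cause was not tested. Collagens called higher numbered 2 after median scaling (4 as reported) and integrins called higher 2 (6 as reported) after the GC content and length correction. Depth limits genes near 1 CPM, such as COL2A1, COL24A1, ITGA1, ITGA8 and ITGA9.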
